A study of Homo sapiens with 6 samples.

Results

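High-density lipoprotein (HDL) is the particle that carries paraoxonase 1 (PON1) in blood. Here 10 genes of this particle and of lipoprotein handling, called the HDL genes below, were examined. The cells were HCCLM3, a human hepatocellular carcinoma (HCC) cell line. The 10 genes are *APOA1*, *APOA2*, *APOB*, *APOC1*, *APOC3*, *APOE*, *APOM*, *LCAT*, *PLTP* and *SCARB1*, chosen by name as apolipoproteins and HDL maturation genes. Each was found by its symbol among the 20381 genes of the deposited table. One group of cells carried the full-length *PON1* coding sequence on a lentiviral vector and is labelled stable PON1 overexpression (PON1-OE). The other carried the empty vector and is labelled NC control (PON1-NC). Both were derived from the same line, which the labels call wild type, and both were selected with puromycin. The series text gives RPMI-1640 medium with 15% serum and lysis at 24 h after transfection, whereas the paper describes stable lines and a different serum content. There were 3 poly(A) RNA-seq libraries in each group. Neither source states whether the libraries came from separate infections, clones or cultures, so the p-values measure only the spread between these libraries, which may be technical.

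In the liver, apoA-I and apoA-II form the protein frame of HDL. ABCA1 loads apoA-I with lipid at the cell surface, LCAT esterifies the cholesterol of the young disc so that it matures into a sphere, and PLTP moves phospholipid between particles. The receptor SR-BI, encoded by *SCARB1*, takes cholesteryl ester from HDL back into the cell. PON1 is secreted by hepatocytes and is held on HDL, where apoA-I stabilises it. ApoB is not an HDL protein. It is the frame of very-low-density and low-density lipoprotein.

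The totals of estimated counts were 15706672 to 17948383 per library. *PON1* itself had 0, 2 and 3 counts in the PON1-NC libraries and 155, 181 and 167 in the PON1-OE libraries, which is at least 60.0-fold higher against a floor of 3 counts in each PON1-NC library. A count of 0 allows a level of up to 3 counts, or 0.166 to 0.192 CPM (counts scaled to a common library total) depending on the library, and this limit covers counting error only. In the PON1-OE libraries *PON1* averaged 10.5 ± 0.955 CPM (SD, n = 3). Hepatocyte markers were mostly at low levels. Of 10 such markers, *HP* had no count, *TTR* and *SERPINA1* had at most 3 counts in any library, and *ALB* had 6, 11 and 13 counts in PON1-NC and 11, 4 and 7 in PON1-OE. *TF*, encoding transferrin, was the best represented, with 281 to 396 counts. The summed level of the 10 markers was 27.2 to 31.7 CPM in PON1-NC and 23.6 to 28.1 CPM in PON1-OE, and of the 5 that passed the filter on low counts 0 had an adjusted p under 0.05 and 0 an unadjusted p under 0.05 in edgeR. The summed level of 4 cholangiocyte markers was 18.5 to 19.5 CPM in PON1-NC and 18.0 to 19.4 CPM in PON1-OE. It was 16.0 to 21.0 and 16.7 to 20.2 CPM for 6 fibroblast markers. For 4 endothelial markers it was 21.9 to 24.6 and 25.1 to 27.8 CPM. *KRT7* (129 to 160 counts), *LUM* (191 to 264) and *PECAM1* (216 to 249) were among them, and 0 of these markers had an adjusted p under 0.05 in edgeR. Of 5 leukocyte markers, *PTPRC*, *CD3E* and *LYZ* had no count in any library and *CD14* had at most 5 counts. The remaining marker, *CD68*, which encodes a lysosomal membrane protein abundant in macrophages, had 3514 to 4097 counts, or 215 ± 10.4 CPM on average in the PON1-NC and 235 ± 12.0 CPM in the PON1-OE libraries (SD, n = 3 each; log2 fold change 0.13, unadjusted p = 0.00943, adjusted p = 0.252 in edgeR), and the groups overlapped. It made up nearly all of the summed level of this list, which was 206 to 227 CPM in PON1-NC and 224 to 248 CPM in PON1-OE, and its part in the results was not tested.

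Levels of different genes were compared as CPM per kilobase of exon, using exon lengths from GENCODE v29. On this scale the HDL genes spread over a wide range, from a strongly expressed receptor to an apolipoprotein that was not detected. *SCARB1* stood first with 57.9 ± 1.34 in PON1-NC and 60.1 ± 1.14 in PON1-OE (SD, n = 3 each), at rank 775 of 20126 genes with a length. *APOC1*, whose product is a small exchangeable apolipoprotein that inhibits lipid transfer and lipases, came next with 12.98 ± 1.37 in PON1-NC and 13.1 ± 2.65 in PON1-OE (SD, n = 3 each), at rank 3463. The median gene that passed the filter on low counts stood at 5.53, so both were above it and each of the other 8 genes was below it. *PON1* in the PON1-OE libraries was at 3.70 ± 0.337 (SD, n = 3) when scaled to all 2832 exonic bases of the gene. The vector carried only the coding sequence, which is shorter. This value may therefore understate the level of *PON1* and is not set against the median.

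**Figure D1:**
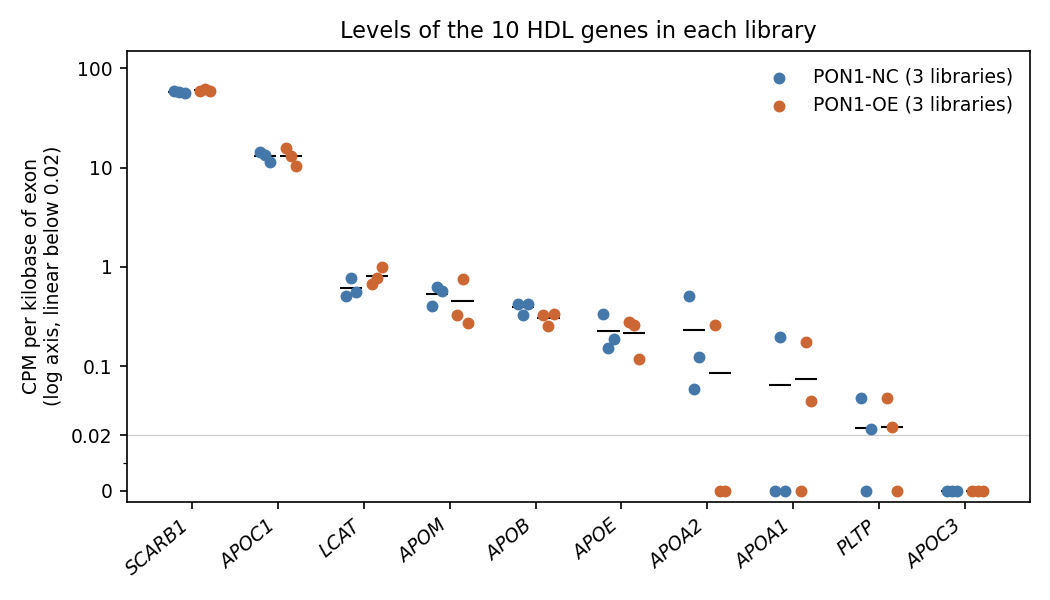
Level of each gene in CPM per kilobase of exon (log axis, linear below 0.02), with 1 point for each of the 3 PON1-NC and 3 PON1-OE libraries and a bar at each group mean. *SCARB1* and *APOC1* stand apart from the other 8 genes, all of whose libraries are below 1, and *APOC3* is at 0 in all 6.

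The remaining genes were low, over a wide range of levels. *LCAT* averaged 0.713 over the 6 libraries, *APOM* 0.492, *APOB* 0.346, *APOE* 0.220, *APOA2* 0.159, *APOA1* 0.0691 and *PLTP* 0.0239. The libraries of *SCARB1* did not overlap those of *APOC1*, and the lowest *APOC1* library (10.5) was above the highest *LCAT* library (0.997). From *LCAT* downward, each gene overlapped its neighbour in the order, so that these neighbours were not separated beyond their spread. Leaving out any 1 library did not alter the order. With the longest transcript in place of all exons as the length, *APOE* moved above *APOB* (0.363).

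*APOC1* and *APOE* lie 4853 bases apart on chromosome 19 and are transcribed in the same direction. *APOE*, whose product directs remnant particles to the liver, is ENSG00000130203 and spans 44905754 to 44909393 on the plus strand, and *APOC1* (ENSG00000130208) spans 44914247 to 44919349 (GRCh38, GENCODE v29). In spite of this proximity, the mean level of *APOC1* per kilobase was 59.1 times that of *APOE*. The next genes of the same cluster had still fewer counts. *APOC2*, encoding the activator of lipoprotein lipase, had 2, 1 and 1 counts in PON1-NC and none in PON1-OE, and *APOC4* had no count.

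The other apolipoprotein cluster with more than 1 of the genes was at the limit of detection throughout. *APOA1* (ENSG00000118137, chromosome 11, 116835751 to 116837950, minus strand) and *APOC3* (ENSG00000110245, chromosome 11, 116829706 to 116833072, plus strand) are 2678 bases apart. *APOA1*, the main protein of HDL, had 0, 5 and 0 counts in PON1-NC and 0, 4 and 1 in PON1-OE. *APOC3*, whose product inhibits lipoprotein lipase, had 0 in all 6 libraries. *APOA4* and *APOA5* of the same cluster had at most 11 counts and no count, respectively.

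Sequences before the first RefSeq start are given for the neighbours *APOE* and *APOC1*, the adjacent pair with the wider gap in level, and for *APOA2*, a low gene outside both clusters. RefSeq starts (GRCh38.p14) were matched for 5 of the 10 genes. Each stretch is the longest run within the 250 bases before the first RefSeq start that no exon of the gene covers in GENCODE v29, and capitals mark GGGCGG (the GC box bound by SP1) on either strand. The stretches lie at chr19:44905546-44905753 (plus strand) for *APOE*, chr19:44914490-44914554 (plus strand) for *APOC1* and chr1:161223632-161223878 (minus strand) for *APOA2*. The stretches of *APOE* and *APOA2* lie outside the gene spans of GENCODE v29, whereas that of *APOC1* lies inside the span given above, in an intron of the GENCODE transcripts that start furthest upstream.
APOE: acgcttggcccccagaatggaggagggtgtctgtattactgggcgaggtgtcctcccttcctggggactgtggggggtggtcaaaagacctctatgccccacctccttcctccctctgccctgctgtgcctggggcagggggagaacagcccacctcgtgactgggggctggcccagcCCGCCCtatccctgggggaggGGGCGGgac
APOC1: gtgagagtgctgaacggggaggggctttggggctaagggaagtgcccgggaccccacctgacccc
APOA2: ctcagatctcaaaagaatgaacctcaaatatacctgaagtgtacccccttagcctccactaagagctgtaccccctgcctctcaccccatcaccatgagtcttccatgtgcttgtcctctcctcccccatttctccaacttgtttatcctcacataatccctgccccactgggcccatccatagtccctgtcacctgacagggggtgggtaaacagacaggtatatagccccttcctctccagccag

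Over the whole 250 bases, GGGCGG occurred at 2 positions for *APOE*, at 1 for *APOC1* and at 0 for *APOA2*, and 42.6% of the 35116 RefSeq promoters in the table held it. The window of *APOA2* had 0 CpG dinucleotides, those of *APOC1* and *APOE* had 7 and 5, and the median promoter had 11. TATAAA (in 10.7% of promoters) and AGGTCA, the core of many nuclear receptor sites (in 12.1%), were in none of these 3 windows on either strand. CCAAT (in 32% of promoters) occurred at 1 position for *APOE* and in neither of the other windows. For *APOE* these counts cover only the first of 3 RefSeq starts. The windows before its later starts held GGGCGG at 0 positions, with 9 and 11 CpG dinucleotides. These matches describe the letters only.

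The question of the comparison was whether cells that overexpress *PON1* differ in these HDL genes. No change of any of the 10 genes passed the test. In such bulk libraries, fewer cells that express a gene and less of its RNA per cell cannot be told apart. Of the 10 genes, 5 passed edgeR's filter on low counts (*APOB*, *APOC1*, *APOM*, *LCAT* and *SCARB1*), and 0 of these passed edgeR's quasi-likelihood test at 0.05 after Benjamini-Hochberg adjustment over all genes, a threshold that 0.677% of the 11958 genes tested passed (0.502% higher and 0.176% lower in PON1-OE). With a fold change over 1.5 in either direction as a further condition, 0.0502% of genes passed, and again 0 of the 5. At an unadjusted p under 0.05 the count was 1 of 5 in edgeR (*APOB*), 0 in limma-voom and 0 in DESeq2, against 11.1% of all genes in edgeR (9.95% without the filter). The PON1-OE libraries lay wholly on one side of the PON1-NC libraries for 0 of the 5, against 16.1% of all genes tested (7.74% with PON1-OE lower). Of the 5, 3 had a positive and 2 a negative log2 fold change (log2FC), with a median of 0.012 beside −0.0025 over all genes tested.

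**Figure D2:**
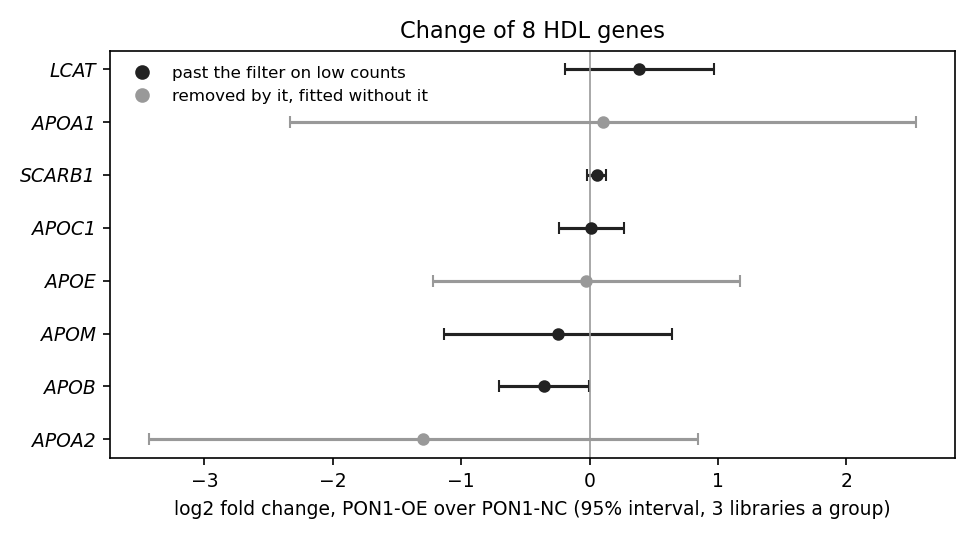
Log2 fold change of PON1-OE over PON1-NC (x axis) with its 95% interval from edgeR for the 8 HDL genes with more than 3 counts in some library. The interval is narrowest for *SCARB1*, *APOB* is the one gene whose interval lies wholly on one side of 0, and the 3 genes removed by the filter (*APOA1*, *APOA2* and *APOE*) have the widest intervals.

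*SCARB1* (ENSG00000073060, chromosome 12, 124776856 to 124882668, minus strand) gave the tightest measurement. It had 7594, 8034 and 7509 counts in PON1-NC and 7569, 7603 and 7200 in PON1-OE, or 448 ± 10.4 CPM and 465 ± 8.80 CPM (SD, n = 3 each). The groups overlapped slightly, since PON1-NC replicate 1 (459.9 CPM) was above PON1-OE replicate 3 (459.7 CPM). The fold was 1.04 with a 95% interval of 0.988 to 1.09 (log2FC 0.05, standard error 0.035, adjusted p = 0.606 in edgeR). *PDZK1*, the adaptor that holds SR-BI at the membrane of hepatocytes, was at 9.28 CPM in PON1-NC and 9.21 CPM in PON1-OE (adjusted p = 0.984 in edgeR).

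*APOC1* varied more within groups than between the group means. Its counts were 288, 296 and 241 in PON1-NC and 319, 255 and 202 in PON1-OE, with PON1-OE replicates 1 and 3 at the top and the bottom of all 6 in CPM (19.4 and 12.9). The means were 16.0 ± 1.69 and 16.1 ± 3.27 CPM (SD, n = 3 each), a fold of 1.01 with a 95% interval of 0.846 to 1.203 (adjusted p = 0.982 in edgeR). Its log2FC of 0.01 became −0.14 without PON1-OE replicate 1. *APOC1* made up 64.8% to 75.8% of the summed counts of the 7 apolipoproteins in each library, and *APOB* 17.2% to 28.5%.

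*APOB* (ENSG00000084674, chromosome 2, 21001429 to 21044073, minus strand) was the gene with the lowest unadjusted p. It had 103, 88 and 106 counts in PON1-NC and 79, 60 and 77 in PON1-OE. In CPM these were 6.24, 4.86 and 6.22 in PON1-NC and 4.81, 3.75 and 4.92 in PON1-OE, so that PON1-OE replicate 3 was just above PON1-NC replicate 2 and the groups overlapped. The means were 5.77 ± 0.786 and 4.49 ± 0.643 CPM (SD, n = 3 each), a log2FC of −0.36 with a standard error of 0.17 and a 95% interval of −0.71 to −0.0077. In edgeR the p was 0.0456 before and 0.443 after adjustment, and the two-sided exact permutation test gave p = 0.2, where 0.1 is the smallest that 3 libraries against 3 allow. The unadjusted p was 0.0554 in limma-voom and 0.115 in DESeq2, and in edgeR it ran from 0.0153 (without PON1-NC replicate 2) to 0.183 (without PON1-OE replicate 2). *MTTP*, encoding the transfer protein that lipidates apoB, averaged 14.3 ± 1.18 CPM in the PON1-NC and 12.4 ± 1.26 CPM in the PON1-OE libraries (SD, n = 3 each; adjusted p = 0.523 in edgeR).

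*LCAT* (ENSG00000213398, chromosome 16, 67939750 to 67944131, minus strand) had 22, 37 and 25 counts in PON1-NC and 29, 32 and 41 in PON1-OE. PON1-NC replicate 2 was above PON1-OE replicates 1 and 2 in CPM, and the groups overlapped. The fold was 1.31 with a 95% interval of 0.874 to 1.96 (adjusted p = 0.666 in edgeR). *LCAT* shares 336 of its exonic bases (12.8%) with *SLC12A4* on the same strand, a gene with 9.98 times its CPM, so its count depends on how the reads were divided.

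*APOM* (ENSG00000204444, chromosome 6, 31652416 to 31658210, plus strand), the apolipoprotein that binds sphingosine-1-phosphate in HDL, had 11, 19 and 16 counts in PON1-NC and 9, 20 and 7 in PON1-OE. PON1-OE replicate 2 was the highest of all 6 libraries in CPM and PON1-OE replicate 3 the lowest. The fold was 0.844 with a 95% interval of 0.455 to 1.56 (adjusted p = 0.889 in edgeR). It shares 136 exonic bases with *BAG6* on the opposite strand, which had 234.9 CPM, and whether the counting used strand is not given in the sources used here.

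**Figure D3:**
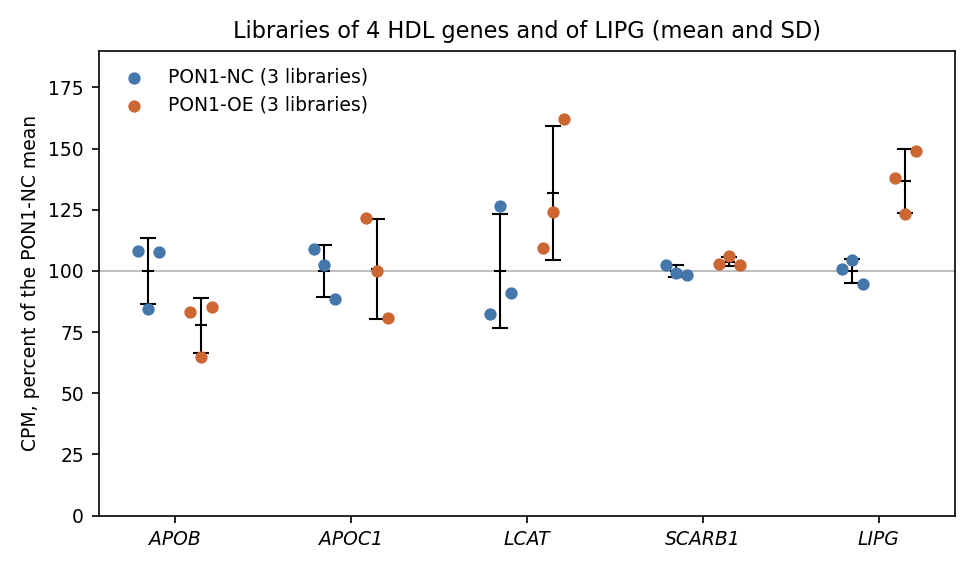
CPM of each library as a percentage of the PON1-NC mean of that gene (y axis from 0), with the mean and SD of the 3 libraries in each group. The groups overlap for *APOB*, *APOC1*, *LCAT* and *SCARB1*, whereas every PON1-OE library is above every PON1-NC library for *LIPG*.

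The other 5 genes were removed by the filter, and their differences were not measurable with useful precision at this depth. *APOE* had 12, 6 and 7 counts in PON1-NC and 10, 9 and 4 in PON1-OE, a fold of 0.982 with a 95% interval of 0.429 to 2.25 in a fit without the filter (adjusted p = 0.990 over 15542 genes in edgeR). *APOA2* (ENSG00000158874, chromosome 1, 161222292 to 161223631, minus strand), which encodes the second protein of HDL, had 8, 1 and 2 counts in PON1-NC and 4, 0 and 0 in PON1-OE. Its highest value was in PON1-NC replicate 1, the groups overlapped, and the fold of 0.407 had a 95% interval of 0.0926 to 1.79 (adjusted p = 0.764 in edgeR). Without PON1-NC replicate 1 its log2FC of −1.30 became −0.040. Without PON1-OE replicate 1 it became −4.89 (unadjusted p = 0.0230, adjusted p = 0.380 in edgeR), where the PON1-OE libraries left had no count.

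*APOA1* had an interval of 0.199 to 5.84 around a fold of 1.08 (adjusted p = 0.990 in edgeR), and the direction of its difference turned with the library left out. *PLTP* (ENSG00000100979, chromosome 20, 45898621 to 45912155, minus strand) had 2, 0 and 1 counts in PON1-NC and 2, 1 and 0 in PON1-OE. Both groups were at or under the floor of 3 counts, and no fold is given. *PLTP* shares 200 exonic bases with *CTSA*, a lysosomal gene on the opposite strand at 628.6 CPM, whereas *PLTP* itself stayed at or under 0.122 CPM.

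The genes around HDL were described with 5 hand-written lists of 96 genes in all, of which 62 were tested. In these lists 2 genes passed an adjusted p under 0.05 in edgeR, both higher in PON1-OE and *LIPG* among them, against 0.677% of all genes, and 18 of the 62 had an unadjusted p under 0.05, against 11.1% of all genes. Neither of the 2 reached a fold of 1.5. The lists were written with earlier results of these data known, so their shares beside those of all genes are description only.

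Among 16 remodelling enzymes and cargo proteins, 8 were tested, with 4 higher, 4 lower and a median log2FC of 0.00020. *LIPG*, encoding endothelial lipase, which hydrolyses HDL phospholipid, had 379, 429 and 367 counts in PON1-NC and 515, 448 and 531 in PON1-OE. Every PON1-OE library was above every PON1-NC library in CPM, with means of 22.7 ± 1.11 and 31.1 ± 2.95 (SD, n = 3 each). The log2FC was 0.45 (standard error 0.082, adjusted p = 0.0117 in edgeR). The call was lost without PON1-NC replicate 3 (adjusted p = 0.121 in edgeR) and likewise without PON1-OE replicate 3 (0.105). The most abundant genes of this list per kilobase were *PON2* (27.0), the intracellular paralog of *PON1*, *SOAT1* (12.6), which esterifies cholesterol inside the cell, and *ANGPTL4* (5.58), an inhibitor of lipoprotein lipase. None of the 3 passed an adjusted p of 0.05 in edgeR. *LPL*, *CETP* and *PLA2G7*, which act on lipoproteins in plasma, had no count.

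Among 17 receptors and adaptors, 13 were tested, with 5 higher, 8 lower and a median log2FC of −0.010. *LRP1*, a large endocytic receptor that takes up apoE-bearing remnants, was among the most abundant of the list per kilobase (7.22), below *SCARB1* (59.0).

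Among 16 genes of particle assembly and efflux, 10 were tested, 4 higher and 6 lower, with a median log2FC of −0.034 and 0 past an adjusted p of 0.05 in edgeR. At an unadjusted p under 0.05 there were 2. *ABCA1*, the exporter that starts HDL formation, had 98, 130 and 130 counts in PON1-NC and 92, 45 and 90 in PON1-OE, with PON1-OE replicate 2 the lowest and no overlap in CPM. Its log2FC was −0.55 (standard error 0.20, unadjusted p = 0.0112, adjusted p = 0.270 in edgeR). *P4HB*, the small subunit of the transfer protein complex and a disulfide isomerase, had a log2FC of 0.07 (adjusted p = 0.406 in edgeR) and was the most abundant of the list per kilobase (468.1), before *SURF4* (168.7) and *PDIA3* (85.0), which act in secretion and folding.

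Among 21 other apolipoproteins, 8 were tested, 5 higher and 3 lower, with a median log2FC of 0.016 and 0 past an adjusted p of 0.05 in edgeR, and 10 had at most 3 counts in every library. The abundant ones were *CLU* (30.0 per kilobase), encoding clusterin, or apoJ, and *APOL1* (27.6) and *APOL2* (24.5) of the apoL family. *CLU* averaged 192 ± 1.96 CPM in the PON1-NC and 205 ± 8.29 CPM in the PON1-OE libraries (SD, n = 3 each; log2FC 0.10, unadjusted p = 0.0283, adjusted p = 0.381 in edgeR). *APOH*, encoding β2-glycoprotein I, had a log2FC of −0.17 (unadjusted p = 0.0461, adjusted p = 0.443 in edgeR).

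Among 26 transcription factors that act on apolipoprotein and lipid genes, 23 were tested, 6 higher and 17 lower, with a median log2FC of −0.086 beside −0.0025 over all genes. In edgeR 0 passed an adjusted p of 0.05. At an unadjusted p under 0.05, 7 were lower and 1 was higher, against 5.17% and 5.91% of all genes. This list too was written with earlier results known, and no test was made of the list. *NR1H4*, the bile acid receptor FXR, had 57, 53 and 80 counts in PON1-NC and 37, 34 and 37 in PON1-OE, without overlap, and a log2FC of −0.71 (unadjusted p = 0.00531, adjusted p = 0.212 in edgeR). *CREB3L3*, a liver factor that drives apolipoprotein genes, had a log2FC of −0.33 (adjusted p = 0.225 in edgeR). Its PON1-NC replicate 2 (646 counts) was near the PON1-OE libraries (641, 640 and 559). In CPM that replicate was below PON1-OE replicates 1 and 2, and the groups overlapped. Without PON1-NC replicate 2 the log2FC of *CREB3L3* was −0.51 and the gene was called (adjusted p = 0.00056 in edgeR). It was also called without the filter on low counts (adjusted p = 0.0111 in edgeR). The most abundant per kilobase were *CEBPB* (144), *ESRRA* (46.9) and *PPARG* (38.8). *HNF4A*, a hepatocyte factor that acts on the *APOA1* and *APOC3* cluster and was chosen here after its values were seen, averaged 78.6 ± 5.36 CPM in the PON1-NC and 80.2 ± 1.89 CPM in the PON1-OE libraries (SD, n = 3 each; adjusted p = 0.898 in edgeR), in the same libraries in which *APOA1* had at most 5 counts.

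**Figure D4:**
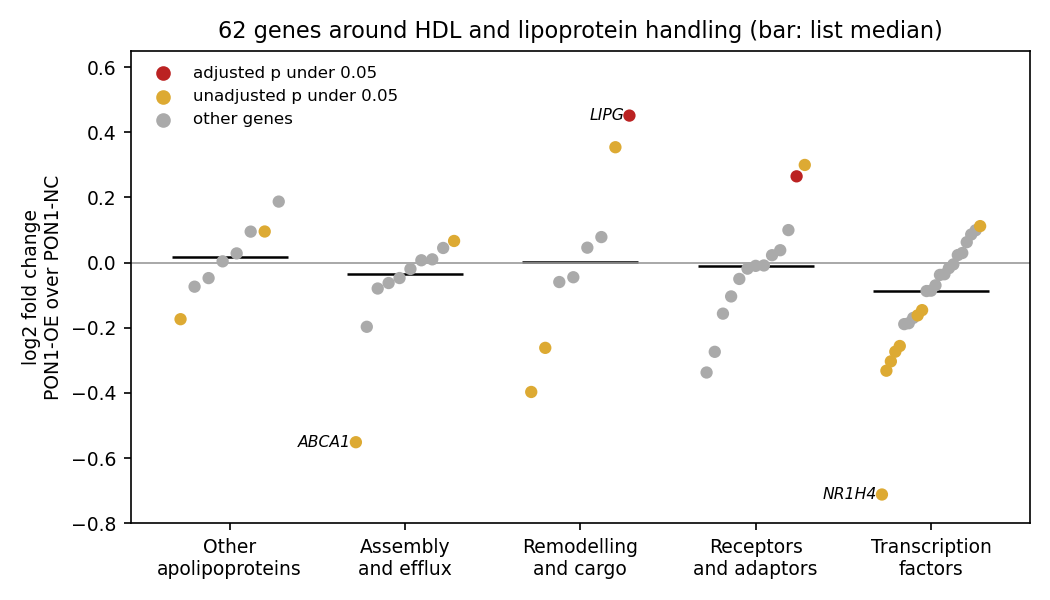
Log2 fold change of PON1-OE over PON1-NC for the 62 tested genes of the 5 lists, with a bar at each list median. Red points, *LIPG* among them, have an adjusted p under 0.05 in edgeR, and the lowest points are *NR1H4* and *ABCA1*, which have an unadjusted p under 0.05.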

How the data were processed

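Poly(A) RNA of 3 PON1-OE and 3 PON1-NC HCCLM3 libraries was sequenced. The authors deposited 1 table of estimated counts per gene, not normalized, of which 10.5% were not whole. Per the labels, the submitters' processing notes list Bowtie2 2.2.8, HISAT2, StringTie 1.3.1 and DESeq2, without their roles. The genome build and annotation are not given in the sources used here. Of the identifiers, 20126 were found in GENCODE v29, from which coordinates and lengths were taken.

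Counts were rounded, filtered (filterByExpr), scaled by TMM and tested in R 4.3.3 with edgeR 4.0.16 (quasi-likelihood, PON1-OE against PON1-NC, Benjamini-Hochberg over all genes tested). Genes removed by the filter were fitted without it. Intervals come from the quasi-likelihood standard error. limma 3.58.1 (voom) and DESeq2 1.42.0 were alternatives. The code of the fits was run on simulated counts with the same dispersion for every gene. Changes were set only in genes past the filter, so that run says nothing about the genes removed by it. Members and lists were chosen with earlier results of these data known. Named were the 10 genes and *PON1*, and of each list the genes past an adjusted p of 0.05, or else the 2 with the lowest unadjusted p, and the 3 most abundant per kilobase. *MTTP*, *PDZK1*, *APOC2*, *APOC4*, *APOA4*, *APOA5*, *LPL*, *CETP* and *PLA2G7* were named after their values were seen. Some genes that this rule names are not reported here.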

Additional observations from a re-analysis of the deposited data

How the results depend on the processing

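The count of 0 of the HDL genes past an adjusted p of 0.05 stayed at 0 under RLE size factors, without the filter, with at least 10 counts in every library, with the replicate block, in limma-voom, with truncated counts (added after seeing the data) and without any 1 library; at an unadjusted p it was 1. In DESeq2 it was 0 of 1, since *SCARB1* alone of the HDL genes got an adjusted p (0.547); *PON1* got none, and the stricter filter left no value for *PON1*. The log2FC of *PON1* was 6.13 to 7.33 without single libraries. Directions turned without single libraries for *APOA1* (−1.42 to 3.87, dependent on the prior count where a group is at 0), *APOC1* (−0.14 to 0.15), *APOE* (−0.24 to 0.36) and *APOM* (−0.82 to 0.012). In the lists, 2 genes were called in the main fit, where 0.677% of all genes were called. Without the filter 5 were called (*PCOLCE2* and *CREB3L3* among those added), where 1.14% of all genes were called. Without single libraries 0 to 3 were called, and the cause was not tested. DESeq2 also called 2 in the lists, without an adjusted p for *LIPG*, and 123 over all genes. Calls over all genes fell from 81 to 11 without PON1-NC replicate 3. Same-numbered libraries did not deviate together (correlations 0.030, −0.057 and −0.015), so the numbers were not used as pairs; with the replicate block 40 genes were called in all, *LIPG* among them, and the log2FC of *PON1* was 6.66. Depth limits *APOA1*, *APOA2*, *APOC3*, *APOE* and *PLTP*.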

Other observations

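Within the lists, *PCOLCE2* and *PPARA* were looked at after their values were seen. *PCOLCE2*, a protein found on HDL, had a log2FC of 0.35 (adjusted p = 0.137 in edgeR), and *PPARA*, a receptor for fatty acids, one of −0.26 (adjusted p = 0.226 in edgeR). In both, the groups did not overlap.

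Among 66 genes tested (the lists and the HDL genes), the one whose log2 CPM ran most like that of *SCARB1* over the 6 libraries was *P4HB* (Pearson r = 0.97). For *APOC1* it was *PDZK1* (r = 0.80) and for *LCAT* it was *LIPG* (r = 0.74). These are descriptions of 6 libraries that share the same groups and scaling.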
